A study of Mus musculus with 67 samples.

Results

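The genes described here decide where a lymphocyte travels. They were S1pr1 and S1pr4, 2 receptors for sphingosine 1-phosphate (S1P), the transcription factor Klf2, the membrane protein Cd69, the chemokine receptors Ccr7, Ccr6, Cxcr4 and Cxcr5, and the oxysterol receptor Gpr183. They were picked by name for their roles, with earlier results of these data known and no threshold on a measured value, and are 9 of the 35405 genes counted in both cell types. All 9 passed the filter on low counts in each of the 28 comparisons. Their transcripts were summed in each library and scaled to CPM, the count per 1e+06 counts of the library. The libraries came from B cells and CD4+ T cells of C57BL/6 mice, which were naive or had experimental autoimmune encephalomyelitis (EAE) after immunization with a myelin peptide. The labels name no mutant allele and give no age. Cells were enriched from spleen and lymph nodes with EasySep kits. Cell type and immunization gave 4 sets, called naive B, naive T, EAE B or EAE T, and every set had 5 arms of 3 libraries, which makes 60 libraries in 20 groups. In the unstimulated arm no antibody was added. In the other 4 arms cells were held for 18 h with latex beads that carried anti-IgM/G for B cells or anti-CD3 for T cells. The beads also carried control Ig or anti-Btla (clone 6A6), and each was used without or with soluble IFNb (interferon beta). Lymphocytes carry Btla as a receptor that inhibits them when its ligand Hvem binds. The antibody is known both to block that ligand and to trigger the receptor.

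Lymphocytes leave lymphoid organs by following S1P, which is plentiful in blood and lymph and scarce in tissue. S1pr1 is the receptor that carries them out, Klf2 is a direct activator of its gene in quiescent cells, and Cd69 binds the S1pr1 protein and takes it off the surface. Inside the organ, Ccr7 draws cells to the T zone, Cxcr5 draws them to the B cell follicle and Gpr183 holds activated B cells at the outer follicle, while Cxcr4 retains cells in bone marrow and in the germinal center dark zone and Ccr6 guides cells to epithelium and other mucosal sites. S1pr4 is a further S1P receptor of blood cells.

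Library depth was 6.7 to 62 M counts (M, counts in units of 1e+06) for B cells (median 32.95) and 7.3 to 34 M for T cells (median 13.15). Anti-Btla libraries of EAE B cells (6.7 to 29.5 M) were shallower than those with control Ig (36.2 to 62 M). The summed level of 5 B cell markers was 3025 to 5617 CPM in B cell libraries, and that of 5 T cell markers was 1181 to 1858 CPM in T cell libraries. The naive T libraries, labelled CD4+, also held Cd8a and Cd8b1 at a sum of 500.6 to 1096 CPM, against 13.2 to 26.2 CPM in EAE T libraries. In EAE T cells the summed level of 5 myeloid markers was 117 to 307 CPM without stimulation and 23.3 to 83.7 CPM in the other arms. Whether unstimulated cells were also cultured for 18 h is not given in the sources used here, so stimulation and culture cannot be told apart. Naive and EAE cells, and B and T cells, were separate libraries, and no label names their batches. Any handling that differed between these sets cannot be told apart from cell type and immunization. In bulk RNA fewer cells of a type and less RNA per cell cannot be told apart. Nothing in the labels says whether libraries of a group came from separate animals, so a p-value here measures no more than the spread between libraries.

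Promoter sequence is shown for S1pr4, Klf2 and Cxcr4, members called in several comparisons whose promoters held letters bound by KLF factors, the family of Klf2. RefSeq supplied promoters (build GRCm38.p6) for 5 of the 9 members, Klf2, S1pr4, Cxcr4, Gpr183 and Ccr6. The 250 bases before the RefSeq start were searched on both strands for CACCC, the core of KLF sites, for GGGCGG, the GC box shared by SP and KLF factors, and for GTAAACA, a FOXO site. No 2 matches overlapped. In the sequences below, read 5′ to 3′ along the gene, capitals mark a match, and GGGTG or CCGCCC is a match on the other strand. The Klf2 stretch ends where the annotated transcript begins.
S1pr4 (chr10:81500138-81500387, minus strand): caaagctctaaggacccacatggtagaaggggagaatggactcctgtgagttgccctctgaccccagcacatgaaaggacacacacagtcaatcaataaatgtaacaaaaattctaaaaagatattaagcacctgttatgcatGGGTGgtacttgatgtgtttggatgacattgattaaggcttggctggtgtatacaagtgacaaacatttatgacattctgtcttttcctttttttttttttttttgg
Klf2 (chr8:72318812-72319032, plus strand): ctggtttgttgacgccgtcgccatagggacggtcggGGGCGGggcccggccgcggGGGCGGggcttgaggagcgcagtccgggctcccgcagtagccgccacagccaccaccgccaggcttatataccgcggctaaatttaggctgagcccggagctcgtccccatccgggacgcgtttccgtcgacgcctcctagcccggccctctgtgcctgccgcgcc
Cxcr4 (chr1:128592300-128592549, minus strand): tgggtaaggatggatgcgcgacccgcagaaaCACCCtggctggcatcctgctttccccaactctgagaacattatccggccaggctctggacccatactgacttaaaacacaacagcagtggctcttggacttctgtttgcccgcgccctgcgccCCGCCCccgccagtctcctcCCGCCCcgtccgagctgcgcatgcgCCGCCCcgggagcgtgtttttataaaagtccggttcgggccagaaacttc
S1pr4 had 1 CACCC match on the reverse strand, 107 bases before the start. Klf2 had GGGCGG at 214 and 195 bases before the start, and a reverse CACCC at 19 bases that falls outside the stretch shown. Cxcr4 had CACCC at 219 bases and reverse GGGCGG at 95, 75 and 50 bases before the start. The S1pr4 stretch was 38.8% G and C, that of Cxcr4 61.2% and that of Klf2 71.5%. None of the 5 promoters held GTAAACA, and those of Gpr183 and Ccr6 held no match to any of the 3. Among all 32851 promoters 52.01% held CACCC, 32.74% GGGCGG and 3.166% GTAAACA, so a match to the first is found in most genes and is a description of these letters alone.

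Across the 20 groups the members differed widely in how far their levels ranged. S1pr1 (chr3:115710433-115715072, GRCm38) ran from a group mean of 975 CPM in unstimulated naive T cells to 71.1 CPM in EAE B cells with control Ig, a ratio of 13.7. Ccr6 (chr17:8236043-8257141) spanned the widest ratio, 79.4, from 201 CPM in EAE B cells with control Ig and IFNb to 2.53 CPM in unstimulated naive T cells. Gpr183 (chr14:121952551-121965195) spanned the narrowest, 1.94, from 117 to 60.4 CPM. Most steps in these orders were smaller than the spread between libraries. Of the 19 neighbours in the order of S1pr1, 3 had libraries that did not overlap, against 7 for Ccr6 and 1 for Gpr183. For S1pr1 the unstimulated T cells stood first, naive before EAE with overlapping libraries, then the 4 stimulated naive T groups, all overlapping. The control Ig groups of B cells, with and without IFNb, stood last.

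The other members had their extremes in other places. S1pr4 (chr10:81497747-81500132) and Klf2 (chr8:72319033-72321656) were also highest in unstimulated naive T cells, at 153 and 122 CPM. Their lowest means were 24.7 CPM, in EAE B cells with control Ig and IFNb, for S1pr4 and 17.7 CPM, in EAE T cells with control Ig and IFNb, for Klf2. Cd69 (chr6:129267325-129275436) ran from 789.9 CPM in naive T cells with control Ig and IFNb to 84.4 CPM in EAE B cells with anti-Btla. Ccr7 (chr11:99144196-99155077) ran from 635 CPM in naive T cells with anti-Btla and IFNb to 158 CPM in unstimulated naive B cells. Cxcr4 (chr1:128588199-128592293) and Cxcr5 (chr9:44511787-44561877) were highest in B cells, at 188 CPM with anti-Btla and IFNb in naive cells and 327 CPM without stimulation in EAE cells. Cxcr5 lies over Bcl9l on the opposite strand, and the strand setting of the counting is not given in the sources used here, so reads of the 2 genes in that stretch may not have been separated.

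**Figure D1:**
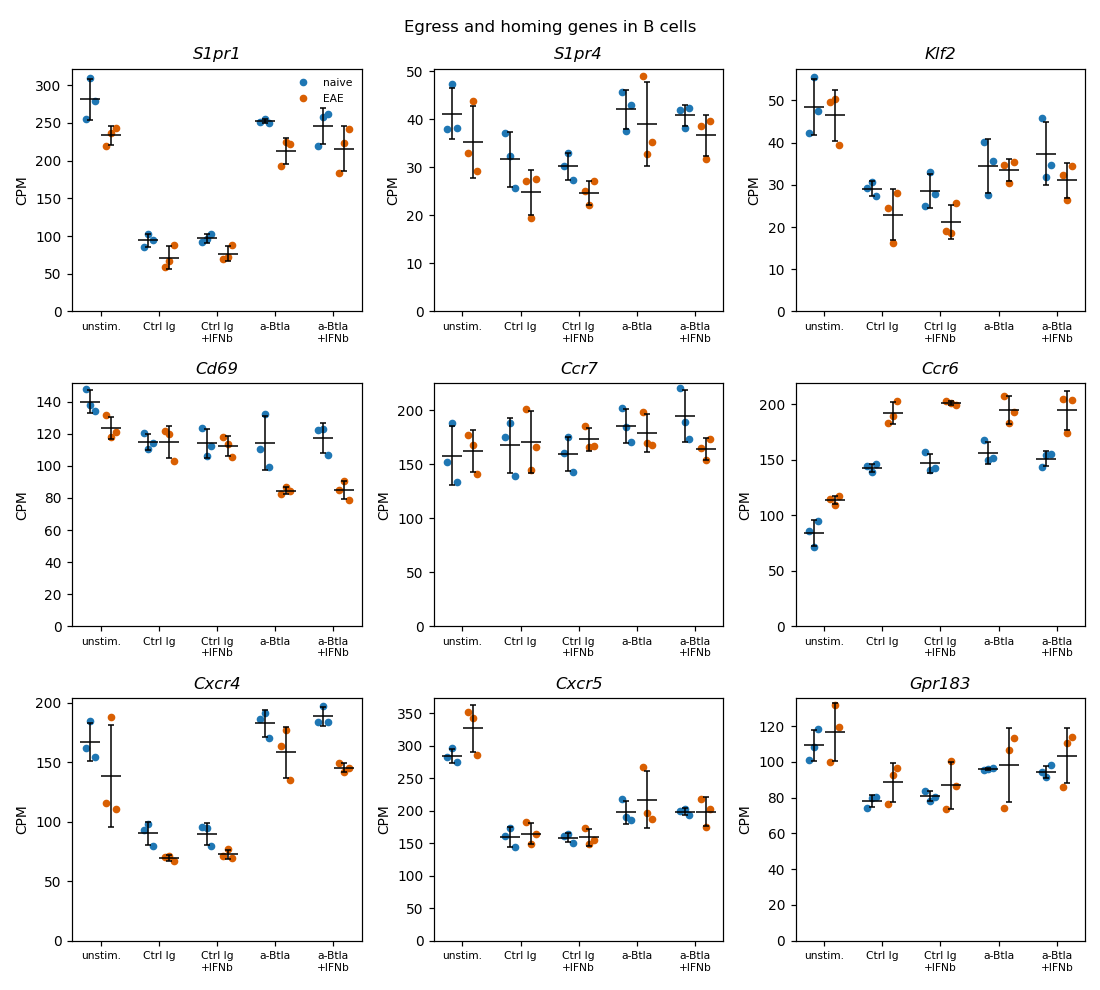
Level of each of the 9 genes in B cells, in CPM on axes that start at 0, by arm. Points are libraries of naive (blue) and EAE (orange) mice, and bars are the group mean ± SD (n = 3). S1pr1 stood at 219 to 309 CPM without stimulation, at 58.6 to 103 CPM with control Ig and at 192 to 255 CPM with anti-Btla.

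**Figure D2:**
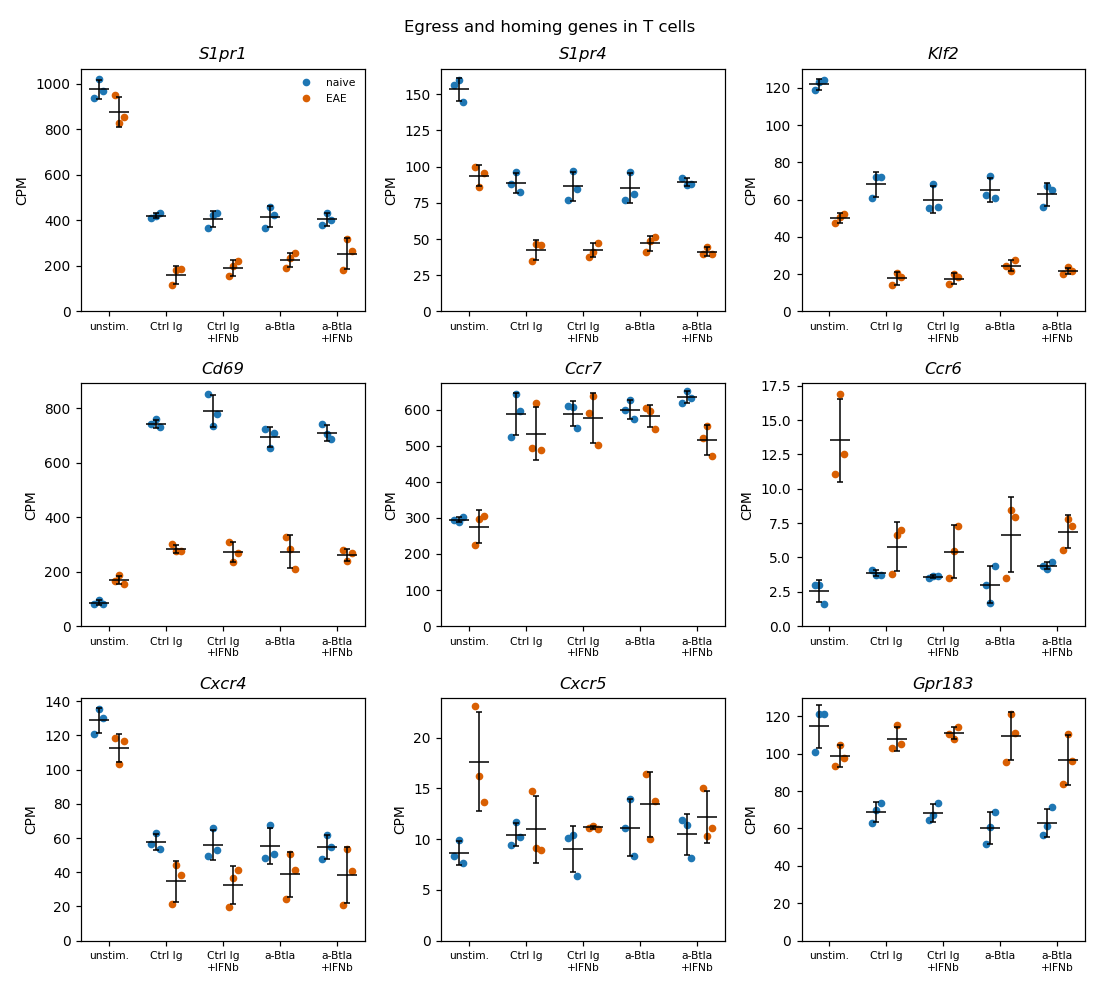
Level of each of the 9 genes in T cells, drawn as for B cells in CPM by arm, with naive (blue) and EAE (orange) libraries and the mean ± SD (n = 3). Cd69 was at 79.7 to 96.3 CPM in unstimulated naive T cells and at 730.0 to 759.6 CPM with control Ig, while in EAE T cells the same arms held 156 to 187 and 275 to 300.5 CPM.

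Within a cell type the members can be ranked per transcript length with TPM. In unstimulated naive B cells the order of mean TPM was Cxcr5 (148), Cxcr4 (133), Ccr6 (114), S1pr1 (103), Ccr7 (95.3), Gpr183 (89.9), Cd69 (65.2), Klf2 (45.4) and S1pr4 (22.8). Libraries of neighbouring genes overlapped for the first 6. In unstimulated naive T cells S1pr1 (319 TPM) and Ccr7 (157 TPM) came first, and Cxcr5 (4.95 TPM) and Ccr6 (3.62 TPM) last. EAE T cells had the same first 2 and last 2 genes, S1pr1 at 280.3 TPM, Ccr7 at 142 TPM, Cxcr5 at 15.4 TPM and Ccr6 at 14.3 TPM.

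Unstimulated B and T cells differed in most of these genes, as they did in most genes tested. edgeR called 10082 of 15870 genes in naive and 8996 of 16685 in EAE cells. Of the 9 members, 4 were higher in naive B than in naive T cells, where 32.9% of all genes tested were higher, and 4 were lower, where 30.6% were. Cxcr5 was at 282, 297 and 275 CPM in the B cell libraries and at 8.31, 9.92 and 7.62 CPM in the T cell libraries, a log2 difference of 5.05 ± 0.10 (SE). Ccr6 differed by 5.15 ± 0.19, Cd69 by 0.70 ± 0.08 and Cxcr4 by 0.36 ± 0.08. The S1P receptors and Klf2 lay the other way, with log2 differences of -1.81 ± 0.08 for S1pr1, -1.91 ± 0.10 for S1pr4 and -1.34 ± 0.10 for Klf2, as did Ccr7 (-0.91 ± 0.11). In EAE cells 2 members, Ccr6 (3.01 ± 0.17) and Cxcr5 (4.17 ± 0.20), were higher in B cells beside 26.9% of all genes, and S1pr1, S1pr4, Ccr7 and Cd69 were lower beside 27%. Klf2 did not pass there (-0.18 ± 0.12, adjusted p = 0.236 by edgeR).

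Activation was measured by comparing control Ig beads with unstimulated cells. In B cells it went with less mRNA for S1pr1, Klf2 and 3 retention or homing receptors, and with more Ccr6. Of the 9 members 1 rose and 5 fell in naive B cells, where 22.7% of all genes rose and 17.5% fell. The same numbers held in EAE B cells, beside 21% and 18.8% of all genes. S1pr1 was at 255, 309 and 279 CPM in unstimulated naive B libraries and at 85.7, 103 and 94.9 CPM with control Ig. The groups did not overlap, and the log2 change was -1.47 ± 0.06 (adjusted p = 1.92e-10), a level 2.76-fold lower. Libraries of EAE B cells read 219, 237 and 244 CPM before and 58.6, 66.6 and 88.1 CPM after, again without overlap (-1.60 ± 0.08, adjusted p = 1.31e-08). Klf2 was at 42.3, 55.6 and 47.5 CPM in unstimulated naive B cells and at 29.2, 30.7 and 27.3 CPM with control Ig. Its libraries were lower in 3 of 3 pairs of the same replicate number, and it fell by 0.63 ± 0.16 (adjusted p = 0.00408). It fell by 0.92 ± 0.14 in EAE B cells (adjusted p = 0.000178). S1pr4 was lower in 3 of 3 pairs in both sets but did not pass, at -0.27 ± 0.12 on the log2 scale in naive (adjusted p = 0.082) and -0.39 ± 0.16 in EAE B cells (adjusted p = 0.0705). It passed in naive B cells without replicate 1 of control Ig (-0.41) or of the unstimulated arm (-0.42), and in EAE B cells without unstimulated replicate 1 (-0.51) or 3 (-0.53). DESeq2 called it in both sets (adjusted p = 0.0384 and 0.0476), as did edgeR without the low-count filter (adjusted p = 0.011 and 0.0197). The summed level of the 5 B cell markers moved with the arms as well, from 5069 to 5563 CPM without stimulation to 3374 to 3794 CPM with control Ig in naive B cells, and from 5049 to 5617 CPM to 3062 to 3502 CPM in EAE B cells. Its part in the B cell changes was not tested.

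Cd69, a classic early activation marker of lymphocytes, was not called in B cells after 18 h. It was at 148, 138 and 134 CPM without stimulation and 121, 111 and 114 CPM with control Ig in naive B cells, and these groups did not overlap. The log2 change was -0.17 ± 0.08 (adjusted p = 0.0918), and edgeR without the low-count filter called it lower (-0.20, adjusted p = 0.0243). The change in EAE B cells was 0.02 ± 0.07 (adjusted p = 0.815), with overlapping libraries.

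Among the homing receptors, Ccr6 was the member that rose in B cells. It was at 85.7, 71.1 and 95.03 CPM in unstimulated naive B cells and at 144, 139 and 146 CPM with control Ig. All 3 stimulated libraries lay above the highest unstimulated one, and the log2 change was 0.88 ± 0.07 (adjusted p = 2.32e-07). In EAE B cells it was 0.89 ± 0.06 (adjusted p = 1.5e-07). Cxcr4 was at 162, 185 and 154 CPM in unstimulated naive B cells and at 92.9, 98.4 and 79.3 CPM with control Ig, without overlap. It fell by 0.78 ± 0.06 in naive and by 0.83 ± 0.12 in EAE B cells. Cxcr5 fell by 0.73 ± 0.06 and by 0.85 ± 0.08, and no stimulated library reached an unstimulated one. Gpr183 fell less, by 0.38 ± 0.05 (adjusted p = 4.26e-05) and by 0.27 ± 0.07 (adjusted p = 0.0062). The EAE call was lost without control Ig replicate 2 (adjusted p = 0.066) and without the replicate block (adjusted p = 0.156). Ccr7 had overlapping libraries and did not pass, at 0.19 ± 0.08 (adjusted p = 0.0825) and 0.20 ± 0.08 (adjusted p = 0.0635). It passed in naive B cells without unstimulated replicate 2 (0.28, adjusted p = 0.0122), and in EAE B cells without unstimulated replicate 2 (0.27, adjusted p = 0.0183) or control Ig replicate 2 (0.31, adjusted p = 0.0142). DESeq2 also called it in EAE B cells (0.22, adjusted p = 0.04).

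In T cells activation reached 8 of the 9 members in each set. In naive T cells 3 rose, where 27.1% of all genes did, and 5 fell, where 23% did. Of the members, 2 rose in EAE T cells beside 31.7% of all genes and 6 fell beside 31.3%. Cd69 was at 80.0, 96.3 and 79.7 CPM in unstimulated naive T cells and at 741, 759.6 and 730.0 CPM with control Ig. Every stimulated library lay far above every unstimulated one, a 9.08-fold rise (3.18 ± 0.07, adjusted p = 1.06e-16). EAE T cells held it at 166, 187 and 156 CPM and then at 300.5, 275 and 276 CPM, also without overlap but with a smaller log2 change (0.78 ± 0.12, adjusted p = 3.19e-05). S1pr1 was at 936, 1021 and 968 CPM in unstimulated naive T cells and at 409, 421 and 433 CPM with control Ig. It fell by 1.15 ± 0.05 (adjusted p = 1.15e-12) without overlap. Libraries of EAE T cells read 952, 826 and 853 CPM and then 114, 184 and 185 CPM. This was the largest fall of any member in any set, 5.44-fold (-2.44 ± 0.15, adjusted p = 1.5e-09).

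S1pr4 and Klf2 also fell in both T cell sets. S1pr4 fell by 0.73 ± 0.07 in naive and by 1.10 ± 0.11 in EAE T cells, and Klf2 by 0.77 ± 0.07 and by 1.45 ± 0.13. Klf2 was at 119, 123 and 124 CPM in unstimulated naive T cells and 60.7, 72.0 and 72.1 CPM with control Ig. The same arms of EAE T cells read 47.4, 50.6 and 52.3 CPM and 14.1, 20.8 and 18.8 CPM. No stimulated library reached an unstimulated one in either set. Cxcr4 fell by 1.11 ± 0.07 and by 1.75 ± 0.21, from 118, 103 and 117 CPM to 21.3, 44.3 and 38.5 CPM in EAE T cells.

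Ccr7 moved the other way in T cells. It was at 293, 288 and 303 CPM in unstimulated naive T cells and 525, 642 and 597 CPM with control Ig, and at 224, 297 and 305 CPM and 494, 619 and 488 CPM in EAE T cells. The groups did not overlap, and it rose by 1.06 ± 0.06 (adjusted p = 1.88e-11) and by 0.99 ± 0.11 (adjusted p = 1.02e-06). Gpr183 fell by 0.68 ± 0.06 (adjusted p = 1.92e-08) in naive T cells. Its EAE T libraries were at 93.5, 105 and 97.8 CPM and then 103, 115 and 105 CPM, with overlap and no call (0.17 ± 0.08, adjusted p = 0.0745). It was called there when control Ig replicate 1, 2 or 3 was left out (0.25 to 0.27, adjusted p = 0.0246 to 0.0335).

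Ccr6 and Cxcr5 were scarce in T cells. Ccr6 was at 11.1, 16.9 and 12.6 CPM in unstimulated EAE T cells and 3.78, 6.64 and 6.96 CPM with control Ig, and it fell by 1.19 ± 0.20 (adjusted p = 9.24e-05). In naive T cells, at 1.63 to 4.11 CPM in these arms, it was not called (0.72 ± 0.30, adjusted p = 0.0531), but it was without unstimulated replicate 2 (0.99, adjusted p = 0.0219) and without the low-count filter (0.76, adjusted p = 0.0115). Cxcr5 fell in EAE T cells (-0.63 ± 0.17, adjusted p = 0.00336) and rose in naive T cells (0.37 ± 0.14, adjusted p = 0.0404), with overlapping libraries in both. The naive call was lost in 4 of the 6 fits that left out 1 library, those without control Ig replicate 3 (0.16) or without unstimulated replicate 1, 2 or 3 (0.31, 0.36 and 0.43), with adjusted p = 0.0553 to 0.435. It was also lost with DESeq2 (0.37, adjusted p = 0.0675) and without the replicate block (0.35, adjusted p = 0.184). These changes in EAE T cells lay beside other differences between the arms. All 5 myeloid markers had a higher mean without stimulation, S100a8 being at 0 in 1 library of each arm, and their sum was 117 to 307 CPM against 23.7 to 64.5 CPM with control Ig. The share of counts from mitochondrial genes was 5.28 to 7% without stimulation and 1.27 to 2.81% with control Ig. In naive T cells the summed CD8 markers were at 925.7 to 1096 CPM without stimulation and 597 to 752 CPM with control Ig, without overlap. Among 3 natural killer markers Eomes was at 12.0 to 22.8 CPM and then 58.4 to 68.3 CPM, while Ncr1 and Klrb1c stayed at or below 3.63 and 4.80 CPM in every naive T library. The mitochondrial share there was 4.54 to 4.82% and then 3.83 to 4.15%. The summed level of Foxp3, Il21 and Pdcd1 was 46.9 to 56.0 CPM and then 86.1 to 113 CPM in naive T cells, and 154 to 205 CPM and then 566.7 to 705 CPM in EAE T cells. Over all 15 EAE T libraries Il21 ran from 0.801 to 527 CPM, Foxp3 from 107 to 218 CPM and Pdcd1 from 5.80 to 24.5 CPM. Il21, a cytokine, thus had the widest range of the 3 in EAE T cells. The part of these markers and of the mitochondrial share in the T cell changes was not tested.

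The effect of activation was compared between cell types in a test of the difference itself. In naive mice 7 of 9 members differed between B and T cells, where 23.7% of all genes did. In a fit without the replicate block 4 were called. The largest difference was that of Cd69, -3.40 ± 0.12 (adjusted p = 2.56e-17), B minus T. Cxcr5 (-1.17 ± 0.14), Ccr7 (-0.91 ± 0.11) and S1pr1 (-0.36 ± 0.08) also lay below 0, so S1pr1 fell further in naive B than in naive T cells. S1pr4, Cxcr4 and Gpr183 lay above 0 (0.41, 0.28 and 0.25). In EAE mice 7 members differed beside 37.9% of all genes. There S1pr1 lay on the other side, 0.84 ± 0.18 (adjusted p = 0.000736), and Ccr6 differed most (2.02 ± 0.17, adjusted p = 2.96e-09).

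Between EAE and naive mice the effect of activation differed in T cells for 6 members, beside 37.8% of all genes. Cd69 rose less in EAE T cells, by -2.33 ± 0.15 on the log2 scale (adjusted p = 1.12e-11), and S1pr1 fell further (-1.22 ± 0.17, adjusted p = 2.28e-06). Klf2 (-0.60 ± 0.14), Ccr6 (-1.84 ± 0.36) and Cxcr5 (-0.93 ± 0.22) also lay below 0, and Gpr183 above it (0.91 ± 0.10). In B cells no member was called, beside 0.0865% of all genes. edgeR called 15 of 17341 genes there (844 at an unadjusted p below 0.05) and DESeq2 37. The difference for S1pr1 was -0.11 ± 0.10 and for Cd69 0.22 ± 0.11.

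**Figure D3:**
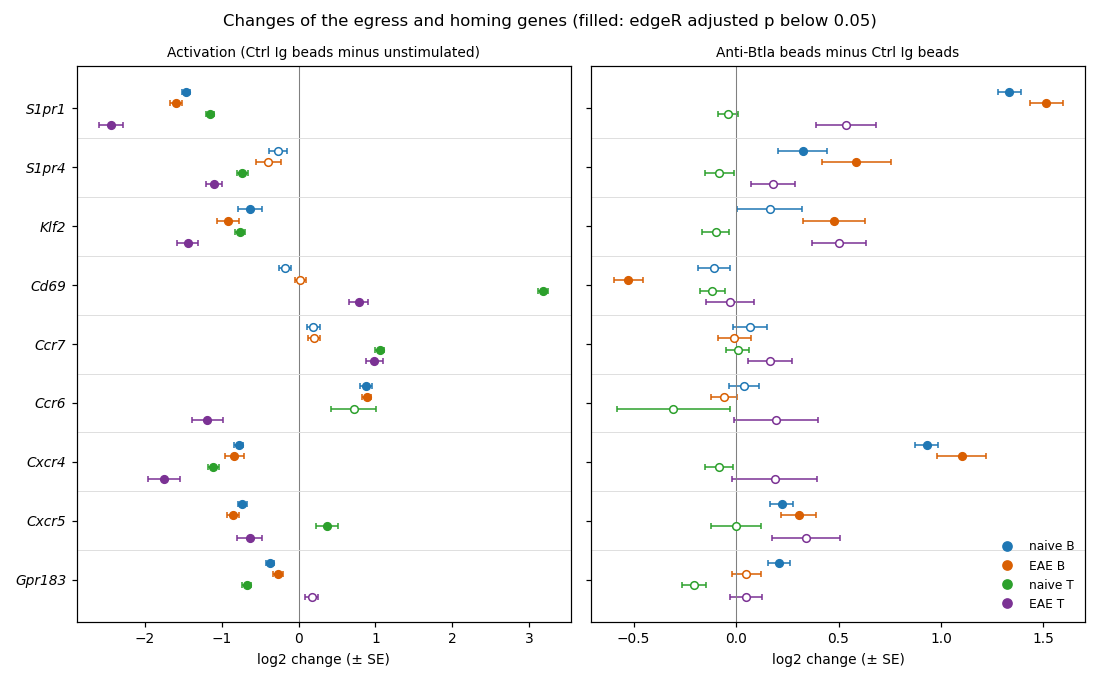
Log2 change ± SE of each gene with activation (left, control Ig against unstimulated) and with anti-Btla (right, against control Ig) in the 4 sets. Filled points passed an edgeR adjusted p below 0.05. With anti-Btla, S1pr1 and Cxcr4 lay at 0.93 to 1.51 in B cells, and no T cell point is filled.

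Anti-Btla beads were compared with control Ig beads in stimulated cells to ask what engaging Btla does to these genes. The control Ig libraries also serve the activation comparison, so opposite signs in the 2 comparisons can come from those shared libraries, and levels are given beside each. In naive B cells 5 of 9 members rose, where 13.1% of all genes did, and 0 fell, where 19.7% did. S1pr1 was at 85.7, 103 and 94.9 CPM with control Ig and at 252, 255 and 250.4 CPM with anti-Btla. All 3 anti-Btla libraries lay above all control libraries, a 2.52-fold rise (1.33 ± 0.06, adjusted p = 6.54e-09), and the unstimulated mean was 281 ± 27.2 CPM (SD, n = 3). Cxcr4 was at 92.9, 98.4 and 79.3 CPM with control Ig and 187, 191 and 169.9 CPM with anti-Btla. It rose 1.91-fold without overlap (0.93 ± 0.06, adjusted p = 2.66e-08).

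The other 3 calls in naive B cells were small. Cxcr5 was at 161, 174 and 144 CPM and then 218, 189.8 and 186 CPM, and Gpr183 at 74.3, 79.6 and 80.6 CPM and then 95.6, 96.1 and 96.7 CPM. Neither gene's groups overlapped, and the rises were 0.22 ± 0.06 for Cxcr5 (adjusted p = 0.00694) and 0.21 ± 0.05 for Gpr183 (adjusted p = 0.00738). S1pr4 was at 37.1, 32.4 and 25.7 CPM and then 45.7, 37.6 and 42.9 CPM. It rose by 0.32 ± 0.12 (adjusted p = 0.0478), a call that was lost without anti-Btla replicate 1 (0.31) or 3 (0.28) or control Ig replicate 2 (0.33) or 3 (0.21), at adjusted p = 0.094 to 0.244, and without the replicate block (0.31, adjusted p = 0.0902). Klf2 was at 29.2, 30.7 and 27.3 CPM and then 40.3, 27.7 and 35.7 CPM, with overlap and no call (0.16 ± 0.16, adjusted p = 0.466). Ccr6, Ccr7 and Cd69 were not called either, with log2 changes of 0.04, 0.07 and -0.11. Cd69 passed without anti-Btla replicate 2 (-0.23, adjusted p = 0.0143). The summed B cell markers were at 4058 to 4665 CPM with anti-Btla, against 3374 to 3794 CPM with control Ig, and their part was not tested.

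In EAE B cells 5 members rose with anti-Btla beside 13.6% of all genes, and 1 fell beside 16.5%. S1pr1 was at 58.6, 66.6 and 88.1 CPM with control Ig and 192, 224 and 222 CPM with anti-Btla. The groups were far apart and the rise was 2.85-fold (1.51 ± 0.08, adjusted p = 1.74e-07). Cxcr4 went from 70.4, 71.0 and 66.9 CPM to 164, 177 and 135 CPM, a 2.14-fold rise (1.10 ± 0.12, adjusted p = 1.63e-05). Cd69, the antagonist of the S1pr1 protein, was at 122, 119.9 and 103 CPM with control Ig and at 82.3, 86.7 and 84.3 CPM with anti-Btla. No anti-Btla library reached a control one, and it fell by 0.53 ± 0.07 (adjusted p = 8.68e-05).

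The other calls in EAE B cells rested on the block. Klf2 was at 24.5, 16.3 and 27.98 CPM and then 34.7, 30.5 and 35.4 CPM, and S1pr4 at 27.2, 19.5 and 27.7 CPM and then 49.1, 32.8 and 35.2 CPM. Neither overlapped, and both were higher in 3 of 3 pairs. The log2 changes were 0.48 ± 0.15 for Klf2 (adjusted p = 0.027), 0.59 ± 0.17 for S1pr4 (adjusted p = 0.0174) and 0.31 ± 0.08 for Cxcr5 (adjusted p = 0.0134). Without the replicate block these 3 calls were lost, with adjusted p = 0.117, 0.0576 and 0.216, and 3 members remained called. The calls for S1pr4 and Cxcr5 were also lost without anti-Btla replicate 1 (0.38 and 0.19), control Ig replicate 1 (0.60 and 0.27) or control Ig replicate 2 (0.43 and 0.24). That for Klf2 was lost when any of these or anti-Btla replicate 2 or 3 was left out (0.29 to 0.51, adjusted p = 0.058 to 0.161). Gpr183 (0.05 ± 0.07), Ccr7 (-0.01 ± 0.08) and Ccr6 (-0.06 ± 0.06) were not called. The anti-Btla libraries of EAE B cells were each shallower than any control Ig library of that set, and the part of depth was not tested. The summed level of the 5 B cell markers was 4159 to 4421 CPM with anti-Btla and 3062 to 3502 CPM with control Ig in EAE B cells, and its part was not tested either.

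In T cells no member was called with anti-Btla. In naive T cells edgeR called 0% of 15150 genes (1249 at an unadjusted p below 0.05) and DESeq2 called 36. S1pr1 was at 409, 421 and 433 CPM with control Ig and 367, 459 and 422 CPM with anti-Btla, with overlap, and its log2 change was -0.04 ± 0.05 (adjusted p = 0.884). Cd69 was at 741, 759.6 and 730.0 CPM and then 722, 653 and 711 CPM. Its 3 anti-Btla libraries lay below all control libraries, but the change was not called (-0.12 ± 0.06, adjusted p = 0.659). With IFNb, Cd69 in naive T cells was at 790 ± 59.8 CPM with control Ig and 711 ± 29.1 CPM with anti-Btla (SD), also without a call. The study names Cd69 among transcripts that anti-Btla lowered in T cells, with DESeq2 and a looser threshold than the one used here. Across 10 alternative fits by edgeR or DESeq2 without IFNb, the smallest adjusted p for Cd69 in naive T cells was 0.237. That lies above the study's threshold too. In EAE T cells edgeR called 0.0686% of all genes, 10 of 14572 (1358 at an unadjusted p below 0.05). S1pr1 was at 114, 184 and 185 CPM with control Ig and 192, 233 and 255 CPM with anti-Btla. The groups did not overlap, but the change of 0.54 ± 0.15 was not called (adjusted p = 0.22). DESeq2 gave it an adjusted p of 0.0159, and the edgeR fit without the low-count filter one of 2.92e-07. Klf2 was at 14.1, 20.8 and 18.8 CPM and then 24.5, 21.6 and 27.8 CPM, also without overlap (0.50 ± 0.13, adjusted p = 0.205, or 0.0247 without the filter). The mitochondrial share of these libraries was 1.27 to 2.81% with control Ig and 2.96 to 3.89% with anti-Btla, and its part was not tested.

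The effect of anti-Btla differed between B and T cells for 4 members in naive mice, beside 16.8% of all genes. The B minus T difference was 1.42 ± 0.08 for S1pr1 (adjusted p = 2.78e-11), 1.06 ± 0.09 for Cxcr4 (adjusted p = 1.98e-08), 0.46 ± 0.08 for Gpr183 and 0.45 ± 0.15 for S1pr4. In EAE mice 3 members differed beside 9.64% of all genes, S1pr1 by 0.93 ± 0.18 (adjusted p = 0.0028), Cxcr4 by 0.87 ± 0.26 (adjusted p = 0.0363) and Cd69 by -0.54 ± 0.15 (adjusted p = 0.0203). Without the replicate block 0 members were called in EAE mice, where edgeR then called 130 genes in place of 1593, and fits without 1 library called 1 or 2.

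Between EAE and naive mice no member's response to anti-Btla was called as different. In B cells edgeR called 0% of 17341 genes (540 at an unadjusted p below 0.05) and DESeq2 8 genes. The EAE minus naive difference was 0.14 ± 0.10 for S1pr1 and 0.13 ± 0.14 for Cxcr4. For Cd69 it was -0.46 ± 0.11 with an unadjusted p of 0.000486 and an adjusted p of 1, so the fall of Cd69 in EAE B cells was not shown to be particular to them. In T cells 0.244% of all genes were called, 39 genes (DESeq2 162, and 1619 at an unadjusted p below 0.05 by edgeR). The differences for Klf2 (0.59 ± 0.15, adjusted p = 0.0829) and S1pr1 (0.57 ± 0.17, adjusted p = 0.171) did not pass. Klf2 passed without EAE T anti-Btla replicate 2 (0.75, adjusted p = 0.0151). Both passed with DESeq2 (adjusted p = 0.0161 for Klf2 and 0.0393 for S1pr1) and without the low-count filter (adjusted p = 0.00486 and 6.86e-07).

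The IFNb arms gave further libraries for the effect of anti-Btla, since the anti-Btla and control Ig libraries with IFNb are not those used above. They carry the same replicate numbers and shared one fit with the libraries above. They are therefore not known to come from other cells or animals, and are no independent repeat. In naive B cells 6 members rose, beside 11.9% of all genes, and 0 fell, beside 17.5%. S1pr1 was at 91.5, 96.5 and 103 CPM with control Ig and IFNb and at 219, 257 and 261 CPM with anti-Btla and IFNb, without overlap (1.29 ± 0.06, adjusted p = 6.14e-09). Cxcr4 was at 95.3, 94.4 and 79.2 CPM and then 184, 197 and 184 CPM (1.02 ± 0.06, adjusted p = 1.58e-08). S1pr4 (0.38 ± 0.12), Cxcr5 (0.28 ± 0.06), Ccr7 (0.24 ± 0.08) and Gpr183 (0.17 ± 0.05) made up the rest. Fits that left out 1 library called 3 to 6 members. Ccr7 was lost without anti-Btla replicate 1 or 3 or control Ig replicate 1, 2 or 3 (0.15 to 0.28), S1pr4 without replicate 1 or 3 of either arm (0.33 to 0.38) and Gpr183 without anti-Btla replicate 1 or control Ig replicate 2 or 3 (0.14 to 0.18). Without the replicate block S1pr4 (adjusted p = 0.0506) and Ccr7 (adjusted p = 0.263) were lost, and without the low-count filter Klf2 was called (0.36, adjusted p = 0.0141).

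In EAE B cells with IFNb 6 members rose, beside 13.6% of all genes, and Cd69 fell, beside 17.4%. S1pr1 was at 69.2, 72.8 and 87.9 CPM with control Ig and IFNb and at 183, 223 and 242 CPM with anti-Btla and IFNb (1.43 ± 0.08, adjusted p = 2.05e-07). Cd69 was at 118, 113 and 106 CPM and then 85.2, 90.8 and 79.0 CPM. Neither gene's groups overlapped, and Cd69 fell by 0.47 ± 0.07 (adjusted p = 0.000177). Cxcr4 rose by 0.94 ± 0.12. S1pr4 (0.50), Klf2 (0.49), Cxcr5 (0.26) and Gpr183 (0.19) were called with the block and not without it, which left 3 members, and fits without 1 library called 3 to 5. S1pr4 (0.43 to 0.58) and Gpr183 (0.11 to 0.22) were lost without any 1 of the 6 libraries, and Gpr183 also under RLE scaling (adjusted p = 0.0585) and without the low-count filter (adjusted p = 0.0587). Cxcr5 was lost without all but anti-Btla replicate 2 (0.18 to 0.27), and Klf2 without anti-Btla replicate 1 or 3 or control Ig replicate 1 or 2 (0.39 to 0.47). In T cells with IFNb no member was called, beside 0.0132% of all genes in naive T cells (2 genes, and 921 at an unadjusted p below 0.05) and 0% in EAE T cells (1418 at an unadjusted p below 0.05). DESeq2 called 13 and 39 genes there. Without the low-count filter edgeR called S1pr1 in EAE T cells (0.39, adjusted p = 0.00361). The mitochondrial share of these EAE T libraries was 5.71 to 7.4% with control Ig and 6.57 to 10.2% with anti-Btla, and its part was not tested.

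IFNb itself, compared within control Ig beads, called no member in any set. edgeR called 0% of all genes in naive B, EAE B and naive T cells (607, 401 and 926 genes at an unadjusted p below 0.05) and 0.158% in EAE T cells (23 genes, and 1358 at an unadjusted p below 0.05). DESeq2 called 2, 1, 3 and 114 genes. The log2 changes of the 9 members ran from -0.08 to 0.03 in naive B cells and from -0.14 to 0.08 in EAE B cells. They ran from -0.30 to 0.07 in naive T cells and from -0.05 to 0.33 in EAE T cells, where S1pr1 was the highest at an adjusted p of 0.514, or 0.0117 without the low-count filter (0.36). The mitochondrial share in EAE T cells was 1.27 to 2.81% with control Ig and 5.71 to 7.4% with control Ig and IFNb. These did not overlap, and the part of this share was not tested.

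Unstimulated cells of EAE and naive mice were compared next. In B cells no member was called, beside 0.0492% of all genes (8 genes by edgeR, 177 by DESeq2, and 1175 at an unadjusted p below 0.05 by edgeR). Ccr6 was at 85.7, 71.1 and 95.03 CPM in naive and 115, 109 and 117 CPM in EAE B cells. These did not overlap, and the log2 difference was 0.47 ± 0.11 (adjusted p = 0.218), with 0.0187 by DESeq2 and 0.0157 without the low-count filter. In T cells 3 members were higher in EAE beside 18.6% of all genes, and 2 were lower beside 17%. Ccr6 was at 2.99, 2.99 and 1.63 CPM in naive and 11.1, 16.9 and 12.6 CPM in EAE T cells, 5.86-fold higher (2.55 ± 0.29, adjusted p = 0.000224). Cxcr5 differed by 1.09 ± 0.21 and Cd69 by 1.07 ± 0.11. Klf2 was at 119, 123 and 124 CPM in naive and 47.4, 50.6 and 52.3 CPM in EAE T cells, a log2 difference of -1.20 ± 0.08 (adjusted p = 1.14e-05), and S1pr4 differed by -0.63 ± 0.07. No libraries overlapped in these 5 genes, and the share of all genes without overlap was not counted. S1pr1 was not called (-0.08 ± 0.07, adjusted p = 0.411), nor were Ccr7, Cxcr4 and Gpr183. The CD8 transcripts were high in the naive T libraries and the myeloid markers in the unstimulated EAE T libraries, as given above, and their part in these differences was not tested.

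The surroundings of these genes were described with a list of 62 further genes of the same pathways, of which 55 to 57 were tested in each set. In naive B cells activation raised 9 and lowered 24 of 57, beside 22.7% and 17.5% of all genes, with a median log2 change of -0.18 against -0.02 over all genes. Spns2, which exports S1P from cells, was at 16.1 ± 2.65 CPM without stimulation and 4.59 ± 0.274 CPM with control Ig (SD, n = 3) and fell by 1.70 ± 0.15. The integrin subunit Itga4 fell by 0.85 ± 0.05, and the cannabinoid receptor Cnr2 by 1.02 ± 0.07. Rgs1 and Rgs2, 2 regulators of G proteins, rose by 2.39 ± 0.17 and by 1.33 ± 0.08. With anti-Btla 19 of the 57 were higher and 10 lower than with control Ig, beside 13.1% and 19.7% of all genes, with a median of 0.11 against 0.01 over all genes. Cnr2 was then at 77.5 ± 6.43 CPM against 42.5 ± 0.488 CPM and rose by 0.78 ± 0.07, Itga4 by 0.49 ± 0.05 and Sgpp2, a phosphatase of S1P, by 0.52 ± 0.07. Cd44 fell by 0.66 ± 0.05, Itgb1 by 0.74 ± 0.06 and Rgs1 by 1.22 ± 0.16.

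These 19 and 10 genes are split here by role, beside the same 13.1% higher and 19.7% lower over all genes. The 10 adhesion genes split into 4 higher and 3 lower with anti-Btla in naive B cells, the 13 genes of receptor desensitization and G proteins into 3 and 4, and the 7 motility genes into 4 and 0. Of the 8 genes that make, break down or export S1P, 3 were higher and 0 lower. Of the 9 other chemoattractant receptors tested 2 were higher and 1 lower, and of the 3 other S1P receptors 1 was lower. Among 6 regulators of S1pr1 and the homing genes 3 were higher and 1 lower. In EAE B cells 18 of 57 were higher and 6 lower, beside 13.6% and 16.5% of all genes, with a median of 0.24 against 0.04 over all genes. Activation there raised 10 and lowered 26, beside 21% and 18.8% of all genes. Cnr2 rose there with anti-Btla from 37.0 ± 4.26 to 75.0 ± 1.13 CPM (0.94 ± 0.08, adjusted p = 1.69e-06).

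In naive T cells activation raised 13 and lowered 30 of 55 genes, beside 27.1% and 23% of all genes, with a median log2 change of -0.27 against -0.02 over all genes. In EAE T cells it raised 16 and lowered 25 of 56, beside 31.7% and 31.3%, with a median of -0.28 against -0.07. Rgs16, another regulator of G proteins, rose from 2.98 ± 0.783 to 203 ± 14.6 CPM in naive T cells (6.07 ± 0.11). The skin-homing receptor Ccr4 rose from 22.9 ± 3.05 to 478 ± 79.4 CPM in EAE T cells (4.43 ± 0.10). Itga4 fell from 1576 ± 151 to 534 ± 31.1 CPM in naive T cells and by 3.02 ± 0.14 on the log2 scale in EAE T cells, and Klf3, a repressor of the same family as Klf2, fell by 1.21 ± 0.04 and by 2.72 ± 0.12. With anti-Btla edgeR called 0 of the 55 genes in naive T cells (10 at an unadjusted p below 0.05) and 0 of the 56 in EAE T cells (15 at an unadjusted p below 0.05).

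**Figure D4:**
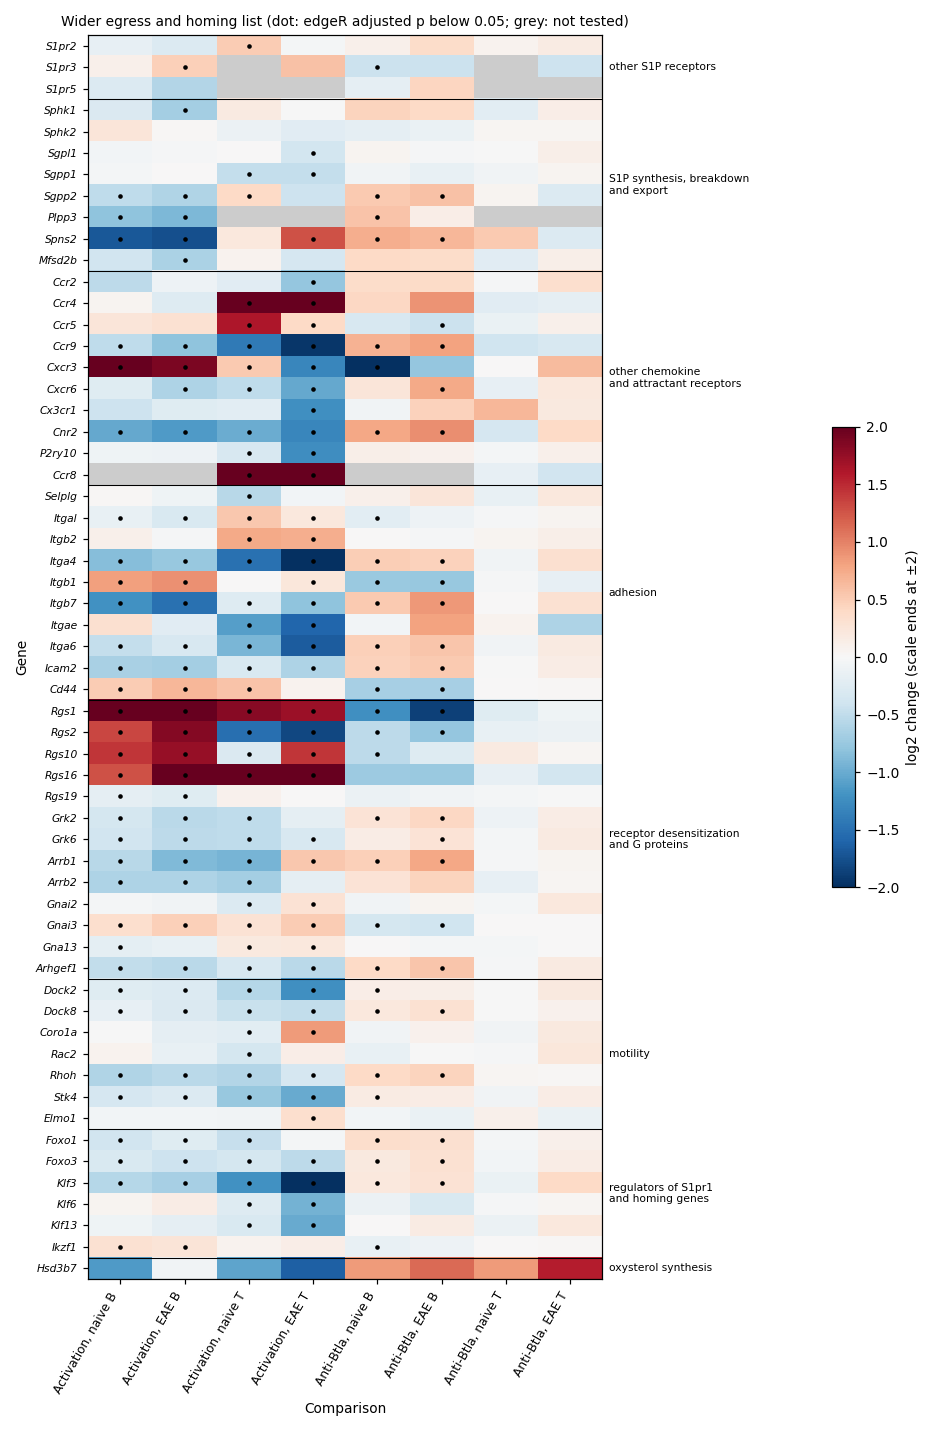
Log2 change of the further egress and homing genes (listed by role) in the activation and anti-Btla comparisons, in red for higher and blue for lower, with colour ends at ±2. Dots mark an edgeR adjusted p below 0.05 and grey marks genes not tested. With anti-Btla 19 genes were higher and 10 lower in naive B cells, and 18 higher and 6 lower in EAE B cells, while the T cell columns held 0 dots.

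The genes whose pattern was most like that of S1pr1 were sought over the 10 group means of each cell type, by Pearson's r of log2 CPM. These values describe groups that share arms and depth, over few points and many genes, and carry no test. In B cells, over 8266 genes, Slc25a37 (0.999), Lamb3 (0.998) and Dgkd (0.998) were closest, and among the members Cxcr4 had 0.974, S1pr4 0.949 and Klf2 0.871. Of the other members Gpr183 had 0.791, Cxcr5 0.767, Ccr7 0.204, Cd69 -0.024 and Ccr6 -0.46. In T cells, over 8411 genes, Lysmd1 (0.998), Tcp11l2 (0.998) and Arhgap25 (0.996) were closest, and Cxcr4 had 0.983, S1pr4 0.925 and Klf2 0.872. Of the other members Cxcr5 had 0.012, Ccr6 -0.092, Gpr183 -0.174, Cd69 -0.266 and Ccr7 -0.714. For Klf2 the closest were Sash3 (0.995), Mgat1 (0.993) and Syvn1 (0.988) in B cells and Cd7 (0.996), Nipal3 (0.996) and Emp3 (0.994) in T cells. For Cd69 they were Ppp1r15b (0.949), Cars (0.943) and Vkorc1l1 (0.928) in B cells and Arl14ep (0.997), Hectd2 (0.995) and Bcl2a1d (0.994) in T cells.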

How the data were processed

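The authors deposited 67 tables from Salmon, with an estimated count (expected count) and a TPM for each transcript. GRCm38 is the build named by the labels. The tools in the submitters' processing notes are Salmon and DESeq2, with no version. No source used here gives the library kit or the strand setting. The deposited TPM values served only to order the members within a group. For 7 libraries with 2 runs the runs were summed. Estimated counts were summed to genes with GENCODE M21 and rounded, and CPM is the count per 1e+06 counts of all genes. The 569 transcripts of the B cell tables and 922 of the T cell tables without a gene in that annotation (0.158 to 0.210% and 0.425 to 0.677% of counts) were left out.

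Each comparison was fitted across all genes with edgeR 4.0.16 in R 4.3.3 (quasi-likelihood F-test, two-sided, TMM scaling, filterByExpr with a minimum count of 10, Benjamini-Hochberg adjusted p below 0.05). The 15 libraries of a set shared one spread, with the replicate number as a block. The study's general statistics put the replicate as a term in linear models. No block is described for its RNA-seq fit by DESeq2. EAE against naive and B against T cells were fitted on 6 libraries without a block, and differences of effects on 30. A log2 change is printed ± SE. The alternatives were DESeq2 1.42.0, RLE scaling, no low-count filter, no block, leaving out each library, and TMM-scaled CPM for levels. The scripts were tested on simulated data.

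The members, the list of 62 further genes and the marker lists were chosen with earlier results of these data known, so they are no independent evidence. One more gene of that list is not reported here, and no count or figure of the list includes it. Genes named from the 62 were among the 3 with the smallest adjusted p per direction in a comparison of activation or of anti-Btla. Not all genes under that rule were named. The 3 most like genes were chosen by Pearson's r of log2 (CPM + 1) over group means, among protein-coding genes whose mean reached 10 CPM. Depth limits precision as counting error, and the intervals between libraries are wider.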

Additional observations from a re-analysis of the deposited data

Results flagged for a closer look

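The results below stood out because a test of the difference between 2 sets of cells passed an edgeR adjusted p of 0.05. Each value is a difference of log2 changes ± SE, and no explanation was tested.

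The effect of activation, B minus T cells in naive mice, differed for S1pr1 (-0.36 ± 0.08, adjusted p = 0.000843), S1pr4 (0.41 ± 0.15, adjusted p = 0.0474), Cd69 (-3.40 ± 0.12, adjusted p = 2.56e-17), Ccr7 (-0.91 ± 0.11, adjusted p = 5.05e-07), Cxcr4 (0.28 ± 0.09, adjusted p = 0.0243), Cxcr5 (-1.17 ± 0.14, adjusted p = 3.36e-07) and Gpr183 (0.25 ± 0.08, adjusted p = 0.0234). The call for S1pr4 was lost without naive B control Ig replicate 1 or 2, naive B unstimulated replicate 1 or 3, naive T control Ig replicate 1, 2 or 3 or naive T unstimulated replicate 1 (0.27 to 0.43). That for Cxcr4 was lost without replicate 1 of either naive B arm, naive T control Ig replicate 2 or 3 or naive T unstimulated replicate 1 (0.22 to 0.25), and that for Gpr183 without naive B unstimulated replicate 1 (0.18) or naive T control Ig replicate 3 (0.23). All 3 were lost without the replicate block (adjusted p = 0.0938, 0.324 and 0.252), and Cxcr4 and Gpr183 also without the low-count filter (adjusted p = 0.144 and 0.254).

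The same difference in EAE mice was 0.84 ± 0.18 for S1pr1 (adjusted p = 0.000736), 0.71 ± 0.21 for S1pr4 (adjusted p = 0.0106), -0.76 ± 0.14 for Cd69 (adjusted p = 0.00018), -0.79 ± 0.15 for Ccr7 (adjusted p = 0.000216), 2.02 ± 0.17 for Ccr6 (adjusted p = 2.96e-09), 0.90 ± 0.26 for Cxcr4 (adjusted p = 0.00744) and -0.44 ± 0.10 for Gpr183 (adjusted p = 0.00171). S1pr4 was lost without EAE B control Ig replicate 1 or unstimulated replicate 3, or replicate 1 of either EAE T arm (0.47 to 0.55). Cxcr4 was lost without EAE T control Ig replicate 1 (0.69) or unstimulated replicate 1 (0.41). Klf2 was called without EAE B control Ig replicate 2 (0.68) or unstimulated replicate 2 (0.70), without the low-count filter (0.51) and with DESeq2 (0.51). Without the replicate block Cxcr4 (adjusted p = 0.156) and Gpr183 (adjusted p = 0.0801) were lost.

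The effect of anti-Btla, B minus T cells, differed in naive mice for S1pr1 (1.42 ± 0.08, adjusted p = 2.78e-11), S1pr4 (0.45 ± 0.15, adjusted p = 0.0422), Cxcr4 (1.06 ± 0.09, adjusted p = 1.98e-08) and Gpr183 (0.46 ± 0.08, adjusted p = 0.000216). The call for S1pr4 was lost without anti-Btla replicate 1 or 3 of either cell type, naive B control Ig replicate 2 or 3 or naive T control Ig replicate 1, 2 or 3 (0.33 to 0.47), and without the replicate block (adjusted p = 0.105). Ccr6 was called without naive T anti-Btla replicate 3 (0.81). In EAE mice the difference was 0.93 ± 0.18 for S1pr1 (adjusted p = 0.0028), -0.54 ± 0.15 for Cd69 (adjusted p = 0.0203) and 0.87 ± 0.26 for Cxcr4 (adjusted p = 0.0363). Cd69 was lost without any EAE B anti-Btla library, EAE B control Ig replicate 1 or replicate 1 or 2 of either EAE T arm (-0.54 to -0.39). Cxcr4 was lost without EAE B anti-Btla replicate 1 or 2, any EAE B control Ig library, EAE T anti-Btla replicate 1 or 3 or EAE T control Ig replicate 2 or 3 (0.80 to 0.95). All 3 calls in EAE mice were lost without the replicate block (adjusted p = 0.0917, 0.116 and 0.285), and Cd69 also under RLE scaling (adjusted p = 0.0627).

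The effect of activation in T cells, EAE minus naive, differed for S1pr1 (-1.22 ± 0.17, adjusted p = 2.28e-06), Klf2 (-0.60 ± 0.14, adjusted p = 0.00165), Cd69 (-2.33 ± 0.15, adjusted p = 1.12e-11), Ccr6 (-1.84 ± 0.36, adjusted p = 0.000248), Cxcr5 (-0.93 ± 0.22, adjusted p = 0.00177) and Gpr183 (0.91 ± 0.10, adjusted p = 4.87e-08). Cxcr4 was called without EAE T unstimulated replicate 2 (-0.79) or 3 (-0.66), and S1pr4 without EAE T control Ig replicate 2 or unstimulated replicate 2 (-0.36 each). Both were also called with DESeq2 (-0.61 and -0.32) and without the low-count filter (-0.62 and -0.36), and Cxcr4 under RLE scaling (-0.58).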

How the results depend on the processing

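No log2 change of a called member reversed its sign under any alternative. With the other scaling (RLE) every count of called members stayed within 1.5 times its value. The cause of each change below was not tested. Without the replicate block, which treats libraries of the same number as pairs, called members went from 6 to 3 for anti-Btla in EAE B cells, from 7 to 3 for anti-Btla with IFNb in EAE B cells, from 7 to 4 for the activation difference between B and T cells in naive mice and from 3 to 0 for the anti-Btla difference between B and T cells in EAE mice. The pairing changed no other count by over 1.5 times. Deviations from group means correlated between libraries of the same number with a median of 0.118 for naive and 0.233 for EAE B cells, and 0.121 for naive and 0.184 for EAE T cells. Libraries of unlike number had medians of -0.058, -0.154, -0.054 and -0.099 in that order. The correlation for like numbers was above 0.1 in 19, 27, 20 and 27 of 30 pairs, not in all, so the libraries are known to share no more than a number. DESeq2 called 1 member in place of 0 for anti-Btla in EAE T cells and for EAE against naive in unstimulated B cells, and 2 in place of 0 for the anti-Btla difference between EAE and naive T cells. Without the low-count filter 2 members in place of 0 were called for anti-Btla in EAE T cells and for its difference between EAE and naive T cells, and 1 in place of 0 for IFNb in EAE T cells, for anti-Btla with IFNb in EAE T cells and for EAE against naive in unstimulated B cells.

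With 1 library left out, called members ranged from 3 to 6 for anti-Btla in EAE B cells, 3 to 6 for anti-Btla with IFNb in naive B cells, 3 to 5 for the same in EAE B cells, 4 to 7 for the activation difference between B and T cells in naive mice, 1 to 2 for the anti-Btla difference between B and T cells in EAE mice and 0 to 1 for the anti-Btla difference between EAE and naive T cells. Levels scaled by TMM in place of the total count moved beyond 1 SD in 21 of 180 group means.

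Counts over all genes moved by more than 1.5 times in these cases. Without the block, EAE B cells had 4403 called genes in place of 6766 for activation, 2775 in place of 5124 for anti-Btla and 2794 in place of 5268 with IFNb, and IFNb in EAE T cells had 12 in place of 23. The anti-Btla difference between B and T cells in EAE mice had 130 in place of 1593 without the block and as few as 714 without 1 library. Its split of 353 higher and 1240 lower became 474 and 679 under RLE. For anti-Btla in EAE T cells 10 genes became 5 (RLE), 291 (no filter), 107 (DESeq2) and 0 (no block, or 1 library left out), and for its difference between EAE and naive T cells 39 became 25, 427, 162 and 0, and 4 to 76 without 1 library. For anti-Btla with IFNb in naive T cells 2 became 0 (RLE, no block, 1 library left out), 144 (no filter) and 13 (DESeq2). Without the filter, and then with DESeq2, the counts were 254 and 36 for anti-Btla in naive T cells in place of 0, 100 and 3 for IFNb in naive T cells in place of 0, 306 and 114 for IFNb in EAE T cells in place of 23, 211 and 39 for anti-Btla with IFNb in EAE T cells in place of 0, 209 and 177 for EAE against naive B cells in place of 8, and 13 and 2, 2 and 1, and 8 and 8 in place of 0 for IFNb in naive B, IFNb in EAE B and the anti-Btla difference between EAE and naive B cells. The activation difference between EAE and naive B cells had 37 genes with DESeq2 and 0 without the block in place of 15. Without 1 library it fell to 5, EAE against naive B cells fell to 4, and anti-Btla with IFNb in EAE T cells, IFNb in naive T, anti-Btla in naive T and IFNb in naive B cells reached 15, 2, 1 and 1. Of the members, Ccr6 and Cxcr5 in T cells rest on few counts, so their changes are the least precise.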

Other observations

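The transcript of Cd69 annotated with a retained intron took 50.8 to 61.9% of the estimated Cd69 counts in the 30 B cell libraries and 30.8 to 51.5% in the 30 T cell libraries, as Salmon divided them. In naive T cells it took 51.5, 44.5 and 45.1% without stimulation and 32.5, 32.4 and 31.0% with control Ig beads, and these groups did not overlap. In EAE T cells the same arms read 41.6, 34.0 and 42.3% and 37.7, 36.2 and 38.5%, with overlap. In naive B cells they read 56.7, 52.8 and 54.8% and 57.6, 51.9 and 56.9%. The difference was not tested, and a division of counts between transcripts of one gene is an estimate.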
